A study of Mus musculus with 6 samples.

Results

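Expression of 10 genes that make the precursors of chondroitin sulfate, assemble its chain and sulfate it was measured in articular cartilage of young and aged mice. They were chosen by name (Ugdh, Slc26a2, Papss2, Xylt1, Csgalnact1, Chsy1, Chsy3, Chpf, Chst11 and Chst3), and all 10 were present among the 33971 genes measured and passed the filter on low counts that left 20397 genes for testing. The samples were 3 libraries of polyadenylated RNA from articular cartilage of 2-month-old wildtype (WT) mice and 3 from 18-month-old WT mice, and no treatment or genetic change was given for either age. The study used male mice, and the comparison asked how expression in articular cartilage changed during aging. The labels do not state whether the 3 libraries of an age came from separate animals, so each p-value measures the spread between these libraries only, which may be technical.

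Chondroitin sulfate is a chain of alternating glucuronic acid and N-acetylgalactosamine that is attached through a short linker to serines of core proteins such as aggrecan. Sulfate groups give the chain its negative charge, and the water drawn in by that charge lets cartilage resist compression. The chain is built in the Golgi from nucleotide sugars and from the sulfate donor PAPS, and inherited loss of several of these genes in people causes skeletal dysplasias.

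The libraries held 48171507 to 59085179 counts each. Markers of the labelled tissue were present at 2 months, where the summed level of 16 chondrocyte markers was 9517 to 11768 FPKM (fragments per kilobase of transcript, scaled to sequencing depth), and low at 18 months, where it was 92.7 to 311, the highest being replicate 1. All 16 chondrocyte markers were called lower. The summed level of 10 neutrophil markers was 6.85 to 3578 FPKM at 2 months (3578 in replicate 2) and 41370 to 46322 at 18 months, and that of 8 erythroid markers was 288 to 7373 against 29898 to 39650. Xist, which is transcribed from the inactive X chromosome of females, had 88239 to 102417 counts at 2 months and 11 to 30 at 18 months. The sexes of the libraries therefore did not match the stated male mice at both ages, and age and sex cannot be told apart in any result given here. In bulk RNA, fewer cells of a type and less RNA per cell also cannot be told apart.

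For all 10 genes each 18-month library lay below each 2-month library, an order found in 32.8% of all genes tested. Genes were called at an adjusted p below 0.05 with a log2 fold change beyond 1 in size (edgeR quasi-likelihood test on the counts, Benjamini-Hochberg adjustment over all genes tested). The 10 genes were chosen with earlier results of these data known, so their share of calls is a description only. Of the 10 genes, 9 were called lower, against 21.3% of all genes tested, and Chsy1 was lower with a change under the limit. None was called higher, against 14.9% of all genes tested, none had an unadjusted p below 0.05 in that direction, and none was called higher by DESeq2. The median log2 fold change of the 10 genes was −2.74, beside −0.02 for all genes tested. The summed level of the 10 genes was 374, 418 and 434 FPKM in the 2-month libraries and 77.8, 51.9 and 56.1 FPKM in the 18-month libraries. Chondrocyte markers fell and neutrophil and erythroid markers stood higher at the same time, and their part in these differences was not tested.

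**Figure D1:**
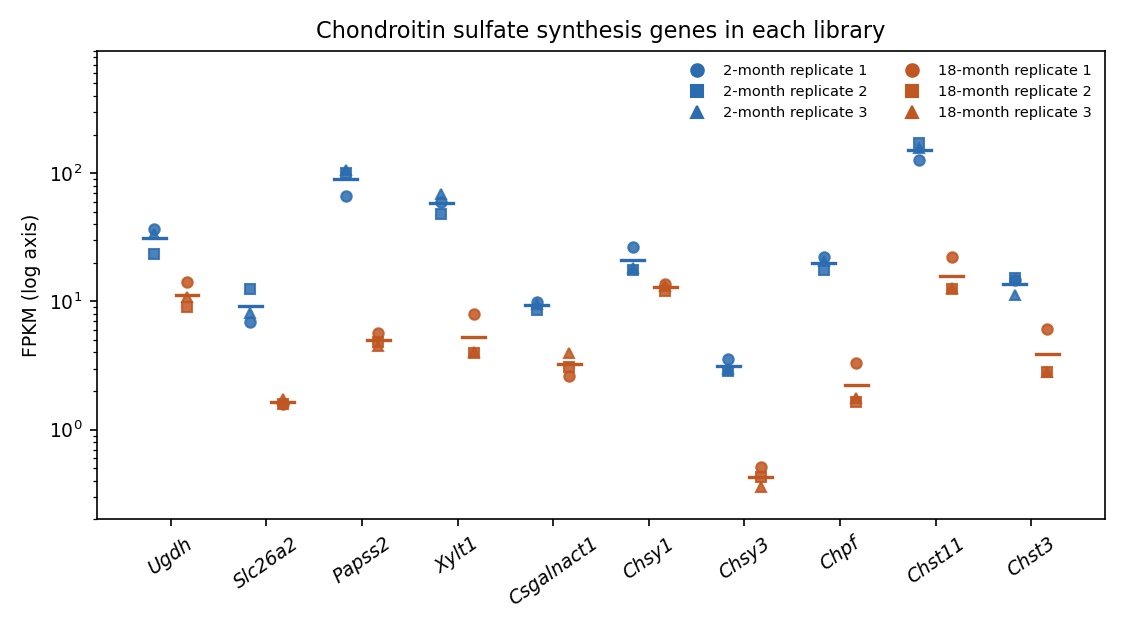
Level of each gene (FPKM, log axis) in each of the 6 libraries, with 2-month libraries in blue, 18-month libraries in orange and a bar at each group mean. For every gene the 3 orange points lie below the 3 blue points, with the smallest separation for Chsy1, at 17.7 to 26.7 against 12.1 to 13.7 FPKM.

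The sequences just before the start of 3 of the genes are shown because they belong to the gene with the largest decrease (Papss2), the gene with the highest level in young cartilage (Chst11) and the gene with the smallest change (Chsy1). Each is the 250 bases before the RefSeq start on the sense strand (GRCm38.p6; Papss2 chr19:32595465-32595714, Chst11 chr10:82985247-82985496 and Chsy1 chr7:66109242-66109491, all on the plus strand). Papss2 has 2 RefSeq starts, and the one nearest to its gene start was used. Capitals mark the GC box, GGGCGG or its reverse complement CCGCCC, the letters bound by SP family factors.
Papss2: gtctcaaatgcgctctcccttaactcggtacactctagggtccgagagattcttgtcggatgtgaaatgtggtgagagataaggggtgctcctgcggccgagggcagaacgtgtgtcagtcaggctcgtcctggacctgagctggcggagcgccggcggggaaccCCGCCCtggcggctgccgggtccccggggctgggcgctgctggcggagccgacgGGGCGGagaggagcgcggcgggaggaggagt
Chst11: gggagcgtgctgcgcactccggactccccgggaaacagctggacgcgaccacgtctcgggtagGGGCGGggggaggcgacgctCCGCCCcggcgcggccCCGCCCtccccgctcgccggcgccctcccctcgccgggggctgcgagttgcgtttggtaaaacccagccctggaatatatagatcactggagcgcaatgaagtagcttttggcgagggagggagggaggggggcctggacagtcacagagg
Chsy1: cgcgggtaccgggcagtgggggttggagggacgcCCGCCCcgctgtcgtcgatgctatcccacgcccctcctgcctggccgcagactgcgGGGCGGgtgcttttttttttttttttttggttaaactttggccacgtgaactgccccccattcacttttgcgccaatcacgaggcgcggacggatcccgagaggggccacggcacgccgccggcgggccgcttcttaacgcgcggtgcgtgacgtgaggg
The windows of the gene with the largest decrease and of the gene with the smallest change each held 2 GC boxes, and the Chst11 window held 3.

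RefSeq windows were given for 6 of the 10 genes (Chst3, Chst11, Chsy1, Chpf, Ugdh and Papss2). All 6 held a GC box on either strand, as did 32.7% of 32851 mouse windows of the same length. Neither ACAAT, a core of the letters bound by SOX factors (reverse complement ATTGT, found in 27.7% of windows), nor the TATA box TATAAA (reverse complement TTTATA, 12.4%) occurred in the 6 windows. The windows were 65.6% to 70.4% G and C, beside a median of 52.4% for all windows, and no base lay in more than 1 motif. Other letters that SOX factors bind were not searched for, so the windows may hold them. A match of letters is a description only, and the absence of one says nothing about binding of the factor.

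Among the genes that supply precursors, Ugdh (UDP-glucose dehydrogenase, chr5:65413221-65435949, minus strand) makes UDP-glucuronic acid, a sugar donor of the chain. Its level was 36.7, 23.3 and 33.8 FPKM in the 2-month libraries and 14.1, 9 and 10.8 FPKM in the 18-month libraries. The groups did not overlap, and the lowest young library, replicate 2, stood above the highest aged library. Ugdh fell 2.95-fold (log2 fold change −1.56, SE 0.27, adjusted p = 0.00562). The call was lost in a test against a fold change of 2 (adjusted p = 0.0565).

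Slc26a2, the sulfate transporter of the cell surface (chr18:61192919-61211612, minus strand), had levels of 6.88, 12.6 and 8.11 FPKM at 2 months and 1.58, 1.59 and 1.74 FPKM at 18 months. The aged libraries were close to each other, and the young ones were spread, with replicate 2 highest. This was a decrease of 5.85-fold (log2 fold change −2.55, SE 0.22, adjusted p = 0.00117).

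Papss2 (chr19:32595790-32667185, plus strand) encodes the synthase of PAPS, the donor from which every sulfotransferase takes its sulfate. It had the largest decrease of the 10 genes. Its level was 66.8, 100 and 105 FPKM at 2 months and 5.67, 4.84 and 4.46 FPKM at 18 months, and its counts were 13647 to 21938 against 1060 to 1419. No aged library came near the young range, and the aged mean was 5.5% of the young mean. The log2 fold change was −4.26 (SE 0.22, adjusted p = 0.000706), a decrease of 19.2-fold, and it lay between −4.59 and −3.91 over 16 alternative analyses.

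Xylt1 (xylosyltransferase, chr7:117380979-117673580, plus strand) starts the chain by placing xylose on a serine of the core protein. Its level was 60.1, 47.7 and 68.6 FPKM at 2 months and 7.95, 3.93 and 4 FPKM at 18 months (58.8 ± 10.5 against 5.29 ± 2.3, SD, n = 3). Replicate 1 was the highest of the aged libraries and remained far below every young one. The log2 fold change was −3.57 (SE 0.36, adjusted p = 0.00161), a decrease of 11.9-fold and the next largest after Papss2.

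Csgalnact1 (chr8:68356781-68735146, minus strand) adds the first N-acetylgalactosamine and so commits the linker to chondroitin rather than to heparan sulfate. Its level was 9.94, 8.58 and 9.55 FPKM at 2 months and 2.61, 3.1 and 3.97 FPKM at 18 months. The young libraries were tightly grouped, and in the aged group replicate 1 was the lowest, unlike for Xylt1. Csgalnact1 fell 3.06-fold (log2 fold change −1.61, SE 0.20, adjusted p = 0.00252).

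Chain growth was followed by Chsy1, Chsy3 and Chpf. Chsy1, a chondroitin synthase that adds both sugars (chr7:66109515-66173798, plus strand), was at 26.7, 17.7 and 18.2 FPKM at 2 months and 13.7, 12.1 and 13.3 FPKM at 18 months. The groups were separated, though the 2 lower young libraries lay near the aged range. Its log2 fold change was −0.76 (SE 0.21, adjusted p = 0.0253), which is 1.7-fold lower and under the limit for a call. It passed the limit in 1 alternative, limma on log2(TPM + 0.1), at −1.09, a scale on which the median of all genes was −0.33. The adjusted p of the edgeR test rose above 0.05 without aged replicate 1 (0.0658), 2 (0.089) or 3 (0.0735). It did so too without young replicate 3 (0.0512) and with aged replicates 2 and 3 summed (0.0836). Without young replicate 1 or 2 it was 0.0266 or 0.00611.

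Chsy3, a second chondroitin synthase (chr18:59175401-59535999, plus strand), was the lowest of the 10 genes at both ages, at 3.55, 2.86 and 2.96 FPKM at 2 months and 0.508, 0.429 and 0.357 FPKM at 18 months. Its counts were 1205 to 1412 and 165 to 248, so the level, though low per length, rested on many counts in each library. The log2 fold change was −2.94 (SE 0.20, adjusted p = 0.000843), a decrease of 7.65-fold.

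Chpf, the chondroitin polymerizing factor that works with the synthases (chr1:75474569-75479307, minus strand), was at 22.1, 17.5 and 20.7 FPKM at 2 months and 3.33, 1.65 and 1.76 FPKM at 18 months. Every aged library was far below the young range, with replicate 1 highest of the 3. Chpf fell 9.49-fold (log2 fold change −3.25, SE 0.32, adjusted p = 0.0015).

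Chst11 and Chst3 are among the enzymes that sulfate the chain, and they place sulfate on different carbons of N-acetylgalactosamine. Chst11, the chondroitin 4-O-sulfotransferase (chr10:82985498-83195900, plus strand), was the most abundant of the 10 genes in young cartilage, at 126, 173 and 156 FPKM, and was at 22.3, 12.5 and 12.8 FPKM at 18 months. Its counts were 38378 to 55805 in the young and 4331 to 8284 in the aged libraries. The log2 fold change was −3.34 (SE 0.28, adjusted p = 0.00117), a decrease of 10.1-fold.

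Chst3, the chondroitin 6-O-sulfotransferase (chr10:60181532-60219260, minus strand), was at 14.8, 15.1 and 11.3 FPKM at 2 months and 6.08, 2.81 and 2.81 FPKM at 18 months. Replicates 2 and 3 of the aged group had the same level, and replicate 1 was higher but still under every young library. The log2 fold change was −1.90 (SE 0.34, adjusted p = 0.00634), a decrease of 3.74-fold.

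**Figure D2:**
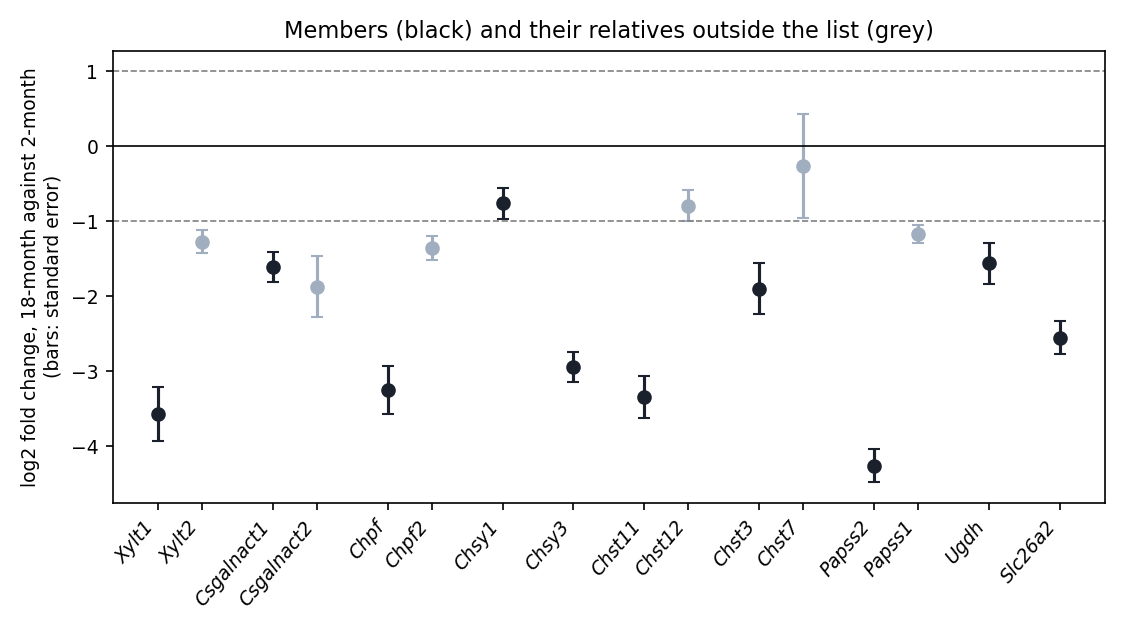
Log2 fold change of 18-month against 2-month cartilage for the 10 genes (black) and 6 relatives of the same enzyme families outside the list (grey), with bars of 1 standard error and dashed lines at the limits of −1 and 1. Papss2 is lowest at −4.26, Chsy1 is the only black point above −1 at −0.76, and Papss1 and Xylt2 (−1.17 and −1.27) lie well above Papss2 and Xylt1 (−4.26 and −3.57).

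The order of levels differed between the ages. By median FPKM the order at 2 months was Chst11 (156), Papss2 (100), Xylt1 (60.1), Ugdh (33.8), Chpf (20.7), Chsy1 (18.2), Chst3 (14.8), Csgalnact1 (9.55), Slc26a2 (8.11) and Chsy3 (2.96). The ranges of Papss2 and Xylt1, of Chpf and Chsy1, and of Csgalnact1 and Slc26a2 overlapped, while the other neighbours were separated. At 18 months Chsy1 was first (13.3), followed by Chst11 (12.8) and Ugdh (10.8), whose ranges overlapped in turn. Then came Papss2 (4.84), Xylt1 (4), Csgalnact1 (3.1), Chst3 (2.81), Chpf (1.76) and Slc26a2 (1.59), each overlapping the next, and Chsy3 was last (0.429) and separate. Ugdh and Papss2 did not overlap, so the aged levels fell into an upper set of 3 genes, a middle set of 6 and Chsy3.

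The share that each gene held of the summed level also differed. Papss2 held 17.9%, 24% and 24.2% of the summed FPKM of the 10 genes in the young libraries and 7.29%, 9.33% and 7.95% in the aged ones. Chsy1 held 7.14%, 4.24% and 4.18% in the young and 17.6%, 23.3% and 23.8% in the aged libraries. Ugdh held 5.58% to 9.81% in the young and 17.3% to 19.3% in the aged libraries. The aged and young ranges of these shares did not overlap. Depth of sequencing does not enter a share taken within a library.

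The aged libraries were not equally low. Aged replicate 1 exceeded the mean of aged replicates 2 and 3 by 1.11 on the log2 scale for Chst3, 1.0 for Xylt1, 0.97 for Chpf, 0.82 for Chst11 and 0.51 for Ugdh. The other 5 genes lay within 0.5 of that mean, from −0.44 for Csgalnact1 to 0.37 for Chsy3. Aggrecan (Acan), the main core protein that carries chondroitin sulfate in cartilage, was 3.11 higher in replicate 1 on the same scale. The summed chondrocyte markers were also highest in that library, and their part in the difference was not tested. With replicate 1 left out, 9 of the 10 genes were again called lower. Aged replicates 2 and 3 were also close outside the 10 genes. Their summed chondrocyte markers were 92.7 and 93.3 FPKM against 311 in replicate 1, and erythroid markers 39650 and 39288 against 29898. Skeletal muscle markers were not closer (5.21 and 3.77 against 4.07). Whether replicates 2 and 3 are separate animals is not stated. With their counts summed, 9 of the 10 genes were called lower.

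Each gene was next compared with a relative of its own family or step within every library, as a log2 ratio of FPKM + 0.1, which needs no scaling between libraries. The 8 ratios were tested by a two-sided exact permutation test over libraries, for which 0.1 is the smallest p that 3 against 3 can give, so none could pass 0.05. Papss2 against Papss1, the other PAPS synthase, was 1.68, 2.27 and 2.46 at 2 months and −0.88, −1.0 and −0.86 at 18 months. The gene thus stood above its relative in every young library and below it in every aged one, a difference of −3.04 (exact permutation p = 0.1, 0.133 adjusted over the 8 ratios). Papss1 itself was 20.2 ± 0.992 FPKM at 2 months and 9.47 ± 1.18 at 18 months (SD, n = 3) and was called lower (log2 fold change −1.17, SE 0.12, adjusted p = 0.00157), a call that was lost in a test against a fold change of 2.

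The ratio of Chst11 to Chst12, another chondroitin 4-O-sulfotransferase, also crossed 0. It was 1.17, 2.13 and 1.40 in the young libraries and −0.48, −1.29 and −1.39 in the aged ones, a difference of −2.62 (exact permutation p = 0.1). Chst12 was at 51.5 ± 10.6 FPKM in young and 31.8 ± 1.75 FPKM in aged cartilage (SD, n = 3), with a log2 fold change of −0.79 that was under the limit (SE 0.21, adjusted p = 0.0245). Chst12 was therefore the higher of the pair per length in aged cartilage and the lower of the pair in young cartilage.

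Xylt1 against Xylt2, which encodes the other xylosyltransferase, went from 3.44 ± 0.36 to 1.10 ± 0.63 (SD, n = 3), and Xylt1 stayed the higher of the pair in every library. The difference was −2.34 (exact permutation p = 0.1). Chpf against Chpf2 went from 0.13 ± 0.12 to −1.77 ± 0.30, a difference of −1.90, from near equal levels to a lower Chpf. Chst11 against Chst3 went from 3.45 ± 0.35 to 2.04 ± 0.16, a difference of −1.41, so Chst11 was above Chst3 in every library, by a smaller margin in the aged ones. Chsy1 against Chsy3 was 2.68 ± 0.17 in the young and 4.64 ± 0.21 in the aged libraries, a difference of 1.96 with the aged libraries above the young ones (exact permutation p = 0.1 for each of these 3 ratios). With a pseudocount of 1 FPKM, which lies above every aged level of Chsy3, that difference was 0.91.

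The groups overlapped in the other 2 ratios. Csgalnact1 against Csgalnact2, a second enzyme of the same step, was −3.74, −2.67 and −3.89 in the young and −3.74, −3.23 and −2.96 in the aged libraries (difference 0.12, exact permutation p = 0.9). Csgalnact2 was the higher of the pair per length in every library, at 134, 55.1 and 143 FPKM at 2 months and 36.2, 29.9 and 31.7 FPKM at 18 months (log2 fold change −1.87, SE 0.41, adjusted p = 0.0129). Its call was lost in 4 of 16 alternatives, among them the fits without aged replicate 2 (log2 fold change −1.81) and without aged replicate 3 (−1.85). Chst3 against Chst7, another 6-O-sulfotransferase, was 6.13, 4.23 and 3.67 in the young and 3.68, 2.16 and 2.35 in the aged libraries (difference −1.95, exact permutation p = 0.2), and −1.22 without young replicate 1. Chst7 was low at both ages, at 0.541 and 0.468 FPKM on average.

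**Figure D3:**
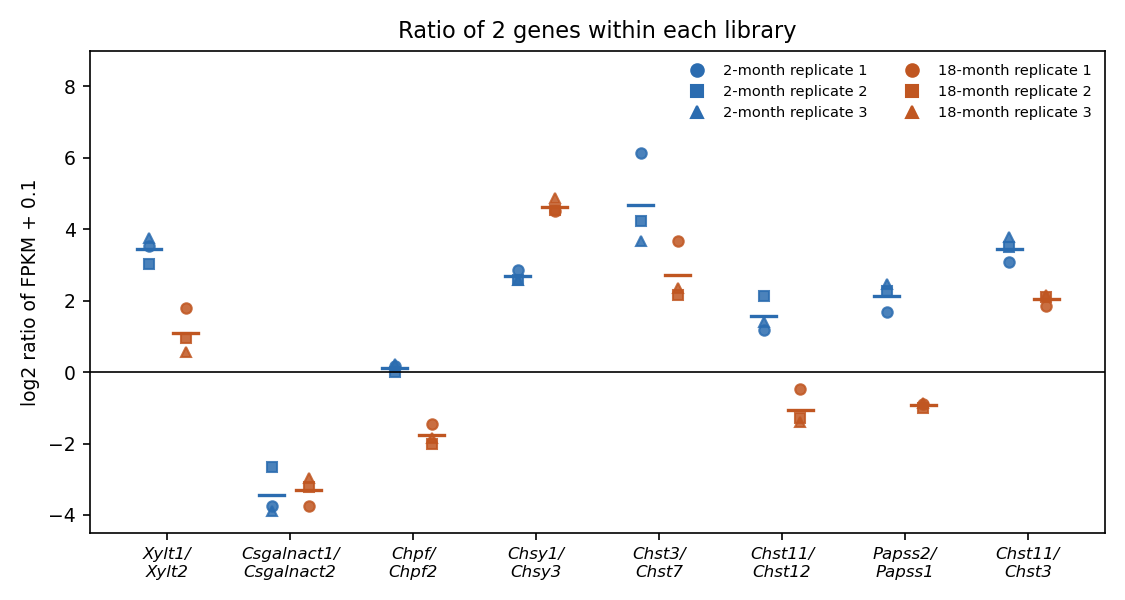
Log2 ratio of 2 genes (FPKM + 0.1) within each library, with 2-month libraries in blue, 18-month libraries in orange and a bar at each group mean. Papss2/Papss1 and Chst11/Chst12 lie above 0 at 2 months and below 0 at 18 months, Chsy1/Chsy3 has means of 2.68 and 4.64, and Csgalnact1/Csgalnact2 overlaps between the ages.

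The remaining genes of the pathway were taken from lists by step. The counts called in each list stand beside 21.3% called lower and 14.9% called higher among all genes tested. Of 6 further genes of linker assembly, 3 were called lower and none higher, with a median log2 fold change of −0.95. The called genes were Xylt2, Fam20b and Pxylp1. Xylt2 changed by −1.27 (SE 0.15, adjusted p = 0.00227), and its call was lost in 2 of 16 alternatives, log2(FPKM + 1) at −0.93 and the test against a fold change of 2 (adjusted p = 0.0793). The other two were Fam20b, the xylose kinase (−1.52, SE 0.17, adjusted p = 0.00186), and Pxylp1, the phosphatase that removes that phosphate (−1.05, SE 0.17, adjusted p = 0.00462), whose call was lost in 4 of 16 alternatives, among them the fit without young replicate 1 (−0.88). B3galt6, a galactosyltransferase of the linker, was 2.59 ± 0.167 and 2.48 ± 0.221 FPKM (SD, n = 3; log2 fold change −0.15, adjusted p = 0.497).

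Of 10 further genes of chain extension and modification, 6 were called lower and 1 higher, with a median of −1.31. Ust, which adds sulfate to the uronic acid, fell by 2.63 on the log2 scale (SE 0.40, adjusted p = 0.00403), and Dsel and Dse, the epimerases that turn chondroitin into dermatan sulfate, changed by −2.61 and −1.62 (SE 0.36 and 0.29, adjusted p = 0.00307 and 0.0066). The gene called higher was Chst13, a further chondroitin 4-O-sulfotransferase, with counts of 4, 91 and 0 at 2 months and 942, 1168 and 1000 at 18 months. Its levels were 0.0414, 0.935 and 0 FPKM and then 8.47, 11.2 and 9.49 FPKM, so in the aged libraries it stood near Chst11 (12.5 to 22.3 FPKM). Its log2 fold change was 4.88 (SE 1.56, adjusted p = 0.043) and 8.63 without young replicate 2. The call was lost in 8 of 16 alternatives, which include the fits without each aged replicate (adjusted p = 0.0892 to 0.106), without young replicate 1 (0.077) and without young replicate 3 (0.0505). Young replicate 2, the only young library with more than 4 Chst13 counts, was also the one with the most neutrophil and erythroid marker RNA, and the part of those cells was not tested.

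Of 12 further genes of precursor and sulfate supply, 5 were called lower and none higher, with a median of −0.90. Slc35d1, which carries UDP-sugars into the endoplasmic reticulum, was at 6.48 FPKM in young and 1.17 FPKM in aged cartilage (log2 fold change −2.53, SE 0.22, adjusted p = 0.00118). Impad1, which clears the by-product left when PAPS is used, was at 35.7 and 11.1 FPKM (−1.77, SE 0.17, adjusted p = 0.00144). Together the 28 genes of these 3 lists had 14 called lower and 1 called higher, with a median of −0.98, beside 9 of 10 and −2.74 for the chosen genes. Because the 10 genes were chosen with earlier results known, this contrast was not tested.

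**Figure D4:**
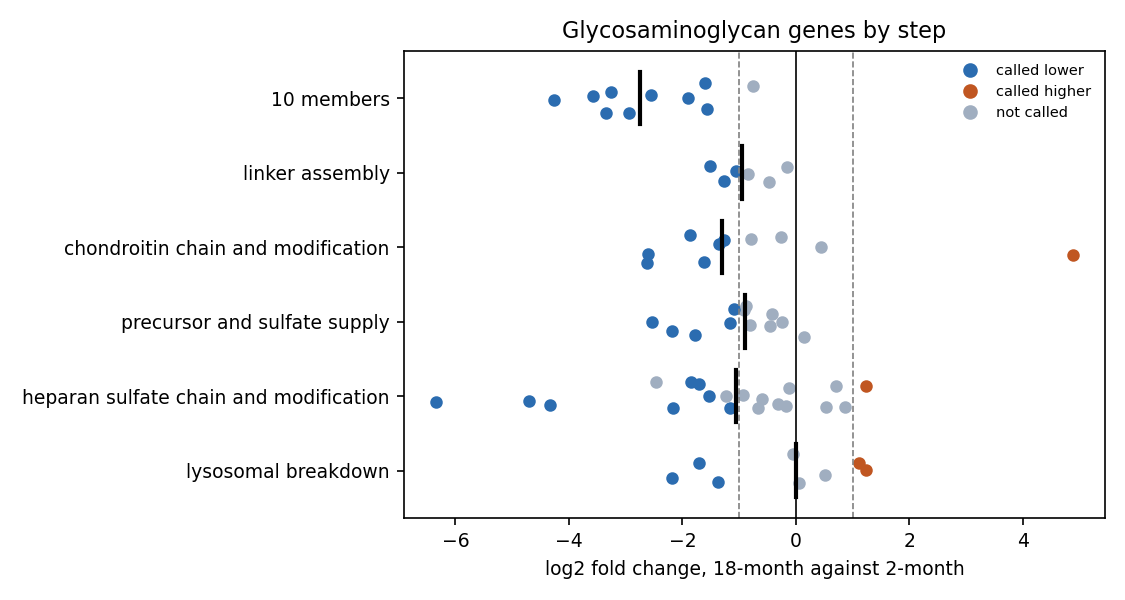
Log2 fold change of 18-month against 2-month cartilage for the 10 genes and for the other genes of 5 glycosaminoglycan lists (points), with a thick bar at each list median and colours for genes called lower, called higher or not called. The medians are −2.74 for the 10 genes, between −0.90 and −1.31 for the 4 synthesis lists and 0.00 for lysosomal breakdown.

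Each gene was also set against the summed FPKM of the 16 chondrocyte markers within each library. The log2 ratio of Papss2 to the markers was −7.15, −6.87 and −6.74 in the young libraries and −5.75, −4.23 and −4.36 in the aged ones. That of Chsy1 was −8.47, −9.37 and −9.27 in the young and −4.49, −2.93 and −2.80 in the aged libraries. For all 10 ratios the aged libraries lay above the young ones, with a difference of 2.14 for Papss2 up to 5.63 for Chsy1 (exact permutation p = 0.1 for each, 0.1 adjusted over the 10 genes). The levels of the 10 genes were thus lower in aged cartilage by less than the summed marker level was. That sum is weighted towards abundant markers such as Chad and Col2a1 (3836 and 2205 FPKM on average at 2 months). It does not hold for each marker alone. Papss2 (log2 fold change −4.26) fell more than Col11a2 (−3.39), Sox5 (−4.05) and Col11a1 (−4.20), and Xylt1 (−3.57) more than Col11a2. The other markers fell more than Papss2. Without aged replicate 1 the difference was 4.51 in place of 3.91 for Slc26a2 and 5.47 in place of 4.75 for Csgalnact1. With a pseudocount of 1 FPKM it was 4.74 in place of 3.67 for Chsy3.

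**Figure D5:**
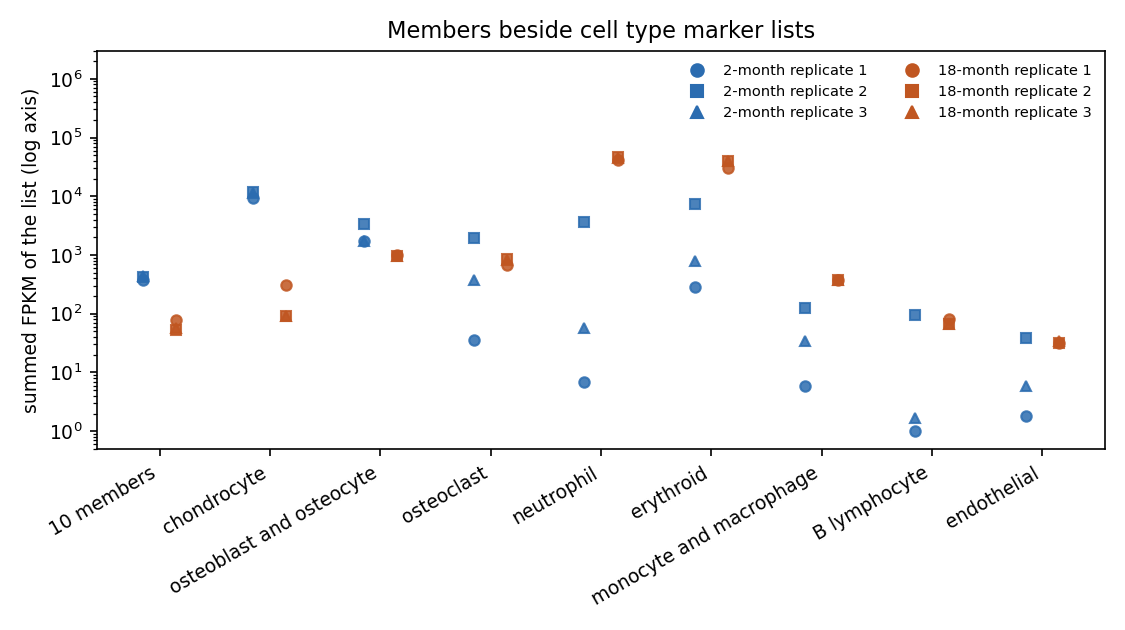
Summed FPKM (log axis) of the 10 genes and of 8 cell type marker lists in each of the 6 libraries, with 2-month libraries in blue and 18-month libraries in orange. The 10 genes go from 374 to 434 down to 51.9 to 77.8, chondrocyte markers from 9517 to 11768 down to 92.7 to 311, and neutrophil markers stand at 41370 to 46322 in the aged libraries.

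Other cell types that the tissue could hold were followed in the same way. Among all genes tested, 21.3% were called lower and 14.9% higher. The summed level of 7 osteoblast and osteocyte markers was 1707 to 3318 FPKM at 2 months and 952 to 996 at 18 months, with 1 of 7 called lower. That 1 was Ibsp, the most abundant of them at 2 months (1360 to 1621 FPKM, against 182 to 194 at 18 months). The other 6 overlapped between the ages. For 7 synovial and tendon fibroblast markers the summed level was 133 to 364 and 25.8 to 65.8, with 3 called lower and 2 higher. Most of the young sum was Thbs4 (123 to 355 FPKM), which was called lower, while Pi16 and Thy1 were called higher. Of 5 skeletal muscle markers tested, 4 were called lower, and Myh4 and Myh1 had no counts at 18 months. Osteoclast markers (36.3 to 1943 and 686 to 840), B lymphocyte markers (1.01 to 95.4 and 66.4 to 81.6) and endothelial markers (1.85 to 38 and 31.3 to 33.9) overlapped between the ages. Monocyte and macrophage markers were at 5.83 to 126 and 373 to 382, and T and NK lymphocyte markers at 0.36 to 12.4 and 97.6 to 118. None of the 10 neutrophil markers was called by the edgeR test, 1 had an unadjusted p below 0.05 and 8 were called higher by DESeq2. The part of these cell types in the levels of the 10 genes was not tested.

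The genes whose levels followed the mean of the 10 most closely were, among 13890 genes compared over the 6 libraries, Tjap1 (Pearson r = 0.9998), Slc2a10 (0.9997), Rab34 (0.9996), Fgfr1 (0.9996) and Sec24a (0.9995). Fgfr1, a receptor of fibroblast growth factors, was at 113, 92 and 102 FPKM in young and 11.9, 7.75 and 8.16 FPKM in aged cartilage. These correlations are a description without a p, since the libraries fall into 2 groups by age and any gene that differs between the ages follows them.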

How the data were processed

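Strand-specific paired-end libraries of polyadenylated RNA were made with adapters that carried molecular identifiers. The submitters' processing notes name cutadapt 1.9, HISAT2 2.0.4, UMI-tools, StringTie 1.3.4d, DESeq2 and edgeR without roles. How the identifiers were used, the genome build and the annotation are not given in the sources used here. The authors deposited 1 table with whole-number counts and FPKM per gene and library. Gene coordinates in it are those of GRCm38, and 29627 of 33865 genes found in GENCODE M21 had the same start and end (9 of the 10 genes, Papss2 ending 2 bases later there). Sequences came from the RefSeq promoter table (GRCm38.p6).

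Counts of all 6 libraries (2-month, n = 3; 18-month, n = 3) were filtered (filterByExpr), scaled by TMM and tested with edgeR 4.0.16 (glmQLFit, glmQLFTest; R 4.3.3), with Benjamini-Hochberg adjustment over all genes and the call limits of the study. The SE was the log2 fold change divided by the root of the F statistic. Ratios used FPKM + 0.1 and exact permutation tests (scipy 1.17.1). In simulated 18-month against 2-month counts (18914 genes), 23 of 50 genes changed by 2 on the log2 scale were recovered, 41 of 50 at 3, 42 of 50 at 4 and 48 of 50 at 6, with 8 false calls.

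The members and gene lists were chosen with earlier results of these data known. Named genes were the 10 genes, the relatives in the 8 ratios, the called genes with the 3 lowest and 3 highest log2 fold changes in each other list (1 of these is not reported here), and the 5 genes most like the 10. Those outside this rule (B3galt6, Dse, Arsb, Xist and each cell type marker given by name) were chosen after their values were seen. Alternatives were DESeq2 1.42.0, median-of-ratios scaling, scaling by library totals without the 100 most abundant genes in place of TMM, and no filter. Others were limma 3.58.1 on log2(FPKM + 0.1), log2(FPKM + 1) and log2(TPM + 0.1). Further fits were a test against a fold change of 2, a replicate block and leaving out each library. For the ratios, pseudocounts of 1 and 0.01 FPKM and CPM in place of FPKM were used. A fit with aged replicates 2 and 3 summed was added after seeing the data.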

Additional observations from a re-analysis of the deposited data

How the results depend on the processing

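Of 868 recomputed values, 811 kept their direction and their side of the threshold or stayed within the limits set, 35 lost a call, 2 gained one, 14 counts moved by over 1.5 times and 6 changed sign. The number of the 10 genes called lower was 9 in 14 of the 16 alternatives across all genes, including DESeq2, the replicate block and every fit without 1 library. It was 10 with limma on log2(TPM + 0.1), which adds Chsy1, and 8 in the test against a fold change of 2, which drops Ugdh; none was called higher in any. Chsy3 and Slc26a2 had smaller log2 fold changes with limma on log2(FPKM + 1), −1.52 and −1.91, a scale that shrinks low levels.

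Of the other enzymes and transporters of the 5 lists, 4 were called higher, against 2 with aged replicates 2 and 3 summed, 1 with log2(TPM + 0.1), 2 with no filter and 0 in the test against a fold change of 2, and 2 to 6 with 1 library left out. The number called lower was 25, and 16 in the test against a fold change of 2. Over all genes, 4354 were called lower and 3047 higher, against 2217 and 3041 with log2(FPKM + 1) and 2667 and 1366 in the test against a fold change of 2. With 1 library left out, 2095 to 5007 were called higher, the most without young replicate 2. The cause was not tested. The ratio of Csgalnact1 to Csgalnact2 turned in sign between −0.11 and 0.50 with 1 library left out, and Chst7 turned from −0.26 to 0.07 with limma on log2(FPKM + 0.1) and to 0.08 with the replicate block, and ran from −0.74 to 0.18 with 1 library left out. Same-numbered libraries did not deviate together (r = 0.0337, 0.0442 and −0.0241), so the numbers were not taken to pair them. With the replicate block, 3509 genes were called lower and 2523 higher.

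With 3 libraries an age, decreases near the limit are the least certain, and the ratios could not reach an exact p of 0.05. Fragment counts cover counting error only.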

Other observations

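The core proteins that carry chondroitin sulfate and lysosomal enzymes that degrade glycosaminoglycans were measured in the same libraries. Of 9 core protein genes tested, 6 were called lower and 1 higher, with a median log2 fold change of −2.62. The shares among all genes tested were 21.3% lower and 14.9% higher. Acan was at 1037, 728 and 1009 FPKM in young and 40.5, 4.91 and 4.44 FPKM in aged cartilage (log2 fold change −5.91, SE 1.13, adjusted p = 0.00804), and −7.69 without aged replicate 1. Cspg4, a membrane proteoglycan, was at 20.8, 22.4 and 23.2 and then 2, 0.469 and 0.366 FPKM (−4.65, SE 0.75, adjusted p = 0.00471; −5.77 without aged replicate 1). Epyc, a small leucine-rich proteoglycan of cartilage, had no counts at 18 months and was at least 1133-fold lower against a floor of 3 counts per library. Srgn, the serglycin core protein of blood cell granules, was at 30.1, 32.1 and 23.4 FPKM in young and 215, 247 and 243 FPKM in aged cartilage (2.97, SE 0.16, adjusted p = 0.000706). Srgn thus exceeded Acan per length in every aged library, with Acan above Srgn in every young one, and neutrophil markers stood higher in the same libraries. Their part in it was not tested.

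Of 8 genes of lysosomal breakdown, 3 were called lower and 2 higher, with a median of 0.00, beside 21.3% and 14.9% of all genes tested. Galns, which removes 6-O-sulfate, was at 7.67, 9.12 and 6.31 FPKM in young and 20.4, 19.2 and 17.6 FPKM in aged cartilage (1.23, SE 0.13, adjusted p = 0.00176). Its call was lost in 2 of 16 alternatives, log2(TPM + 0.1) and the test against a fold change of 2. Gusb, the glucuronidase, was at 6.08, 17.5 and 8.31 and then 26.6, 22.5 and 22.7 FPKM (1.12, SE 0.36, adjusted p = 0.0443), and its call was lost in 11 of 16 alternatives, among them leaving out any library but young replicate 2. Hyal1, which acts on the chain backbone, changed by −1.70. Ids and Idua, which act on iduronic acid and not on the glucuronic acid of chondroitin sulfate, changed by −2.18 and −1.38. Arsb, which removes 4-O-sulfate, was at 10.7, 46.3 and 13.8 and then 26.6, 24.6 and 24.6 FPKM, with the groups overlapping. Galns and Chst3, which remove and add the 6-O-sulfate, differed between the ages in opposite directions. Chst7, another 6-O-sulfotransferase, was not called (log2 fold change −0.26, adjusted p = 0.77). Among the young libraries Galns, Gusb and Arsb were highest in replicate 2, which held the most neutrophil and erythroid marker RNA. Of the 3 genes called lower, Ids and Idua were lowest there, but Hyal1 was highest there (5.24, 7.31 and 6.43 FPKM). The part of those cells was not tested.

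In the heparan sulfate pathway, which shares the linker, 8 of 20 genes tested were called lower and 1 higher, with a median of −1.06. Among all genes tested the shares were 21.3% and 14.9%. Hs3st3a1 and Hs3st3b1, which add the rare 3-O-sulfate, were at 13 and 10.3 FPKM in young and 0.169 and 0.537 FPKM in aged cartilage (−6.34 and −4.34, SE 0.95 and 0.32, adjusted p = 0.00395 and 0.000919). Hs3st3a1 was at −7.86 without aged replicate 1. Extl1, an exostosin-like glycosyltransferase, changed by −4.71 (SE 0.78, adjusted p = 0.00518), and by −5.89 without aged replicate 1. Hs6st1, which adds 6-O-sulfate to heparan sulfate, was at 4.46, 6.84 and 3.83 FPKM in young and 11, 13.2 and 13 FPKM in aged cartilage (1.24, SE 0.21, adjusted p = 0.00556). Its call was lost in 2 of 16 alternatives, log2(TPM + 0.1) at 0.90 and the test against a fold change of 2 (adjusted p = 0.159).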
